A study of Homo sapiens with 46 samples.

Results

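The 10 genes described here are the long noncoding RNA genes that host small nucleolar RNAs (snoRNAs) and are named GAS5, SNHG1, SNHG5, SNHG6, SNHG8, SNHG12, SNHG15, SNHG16, SNHG17 and ZFAS1. The rule that picks them uses gene names and no measured value, though they were proposed with earlier results of these data known; they come from 22676 gene names in 4 transcript tables, each built on its own transcript assembly. All 10 were in the hPSC, ectoderm and mesoderm tables, and 9 were in the endoderm table, in which SNHG12 was not listed. Their isoforms numbered 71 of 32819 in the hPSC table, 62 of 54325 in ectoderm, 59 of 30409 in endoderm and 59 of 36407 in mesoderm.

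Total RNA was sequenced from the H1 line of human pluripotent stem cells (hPSC), an established culture, and from ectoderm, endoderm and mesoderm derived from it over 5 days. Endoderm was made in RPMI with FBS, WNT3A and Activin A, mesoderm with VEGF, BMP4 and bFGF plus Activin A on the first day, and ectoderm in knockout serum replacement with A83-01, PNU-74654 and Dorsomorphin. Each cell type was separated into cytoplasm, nucleus, nucleoplasm and chromatin with buffers that contained the RNA polymerase inhibitor α-amanitin. There were 46 libraries, 3 in each of 15 groups and 1 of mesoderm nucleoplasm, and all came from 1 cell line. No treatment or genotype other than the differentiation media set the groups apart. The labels do not say whether replicates came from separate cultures, so p-values measure the spread between these samples, which may be technical.

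As background, snoRNAs guide chemical modification of ribosomal RNA and are mostly cut from the introns of host transcripts after splicing. The spliced host RNA that is left is often a short-lived noncoding transcript: GAS5 and several SNHG genes are known to start with a run of pyrimidines, like the mRNAs of ribosomal proteins, and their spliced RNAs are known to be broken down in the cytoplasm by nonsense-mediated decay. Transcripts that keep an intron can stay in the nucleus.

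RefSeq promoter windows (GRCh38.p14) matched 8 of the 10 genes. The 6 below are shown as examples, 4 from genes called higher in cytoplasm in at least 1 cell type and 2 from genes called lower there in endoderm. The examples were grouped by fraction call and the motifs were picked from these same windows, so no pattern can be read from them. Of the other 2, GAS5, called higher in cytoplasm in hPSC, ectoderm and mesoderm, holds none of the counted motifs. The GAS5 window (chr1:173869021-173869090, minus strand) lies wholly upstream of the gene span given below (chr1:173863900-173868882). It therefore does not cover the start of that span. SNHG12, called higher in ectoderm and lower in mesoderm, holds TATAAG and CTTTC. A link between motif and fraction was not tested. Each window runs from 45 bases before the annotated start to base 25 of the transcript, with the motifs counted in the next paragraph in capitals.
SNHG5, chr6:85678709-85678778, minus strand: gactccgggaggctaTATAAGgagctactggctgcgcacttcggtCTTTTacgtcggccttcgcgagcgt
SNHG8, chr4:118278717-118278786, plus strand: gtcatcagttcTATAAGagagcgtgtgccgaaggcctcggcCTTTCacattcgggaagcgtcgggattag
SNHG16, chr17:76557719-76557788, plus strand: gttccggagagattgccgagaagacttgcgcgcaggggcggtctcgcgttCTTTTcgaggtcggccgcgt
ZFAS1, chr20:49278597-49278666, plus strand: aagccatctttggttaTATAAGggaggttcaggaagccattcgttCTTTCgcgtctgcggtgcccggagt
SNHG1, chr11:62855861-62855930, minus strand: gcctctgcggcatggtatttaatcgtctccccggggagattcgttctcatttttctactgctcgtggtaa
SNHG17, chr20:38435304-38435373, minus strand: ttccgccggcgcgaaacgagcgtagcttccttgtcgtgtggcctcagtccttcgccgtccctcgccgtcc

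The motifs were picked after these windows had been read, so the counts describe the windows and test nothing. TATAAG lay in the 45 bases before the start in 4 of the 8 genes (SNHG5, SNHG8, SNHG12 and ZFAS1), against 1.07% of 35116 promoters on the forward strand and 0.555% on the reverse strand. Around the start, from 10 bases before to base 25, CTTTT was found in 2 (SNHG5 and SNHG16; 4.04% of promoters forward, 2.86% reverse) and CTTTC in 3 (SNHG8, SNHG12 and ZFAS1; 4.77% forward, 3.84% reverse). None of the 8 held any of the 3 motifs on the reverse strand in these windows.

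In GENCODE 29 (GRCh38), GAS5 lies at chr1:173863900-173868882 (minus strand), SNHG1 at chr11:62851988-62855914 (minus), SNHG5 at chr6:85660950-85678748 (minus) and SNHG6 at chr8:66921684-66926398 (minus). SNHG8 lies at chr4:118278709-118279823 (plus), SNHG12 at chr1:28578538-28583132 (minus) and SNHG15 at chr7:44983023-44986961 (minus). SNHG16 lies at chr17:76557766-76565348 (plus), SNHG17 at chr20:38420588-38435353 (minus) and ZFAS1 at chr20:49278178-49295738 (plus). SNHG1 contains, among others, SNORD25 to SNORD28, SNORD22 and SNORD30, SNHG16 contains SNORD1A, SNORD1B and SNORD1C, ZFAS1 contains SNORD12, SNORD12B and SNORD12C, and SNHG8 contains SNORA24. ZFAS1 shares 249 bases with ZNFX1 on the opposite strand, SNHG16 shares 1639 bases with AC015802.6, GAS5 shares 801 bases with ZBTB37, and SNHG6 shares 365 with MCMDC2. The library kit does not mark strand, so reads from these overlaps cannot be told apart.

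Library totals ran from 4990408 to 21298678 estimated counts, and levels below are CPM, counts scaled to that total. In hPSC all 6 pluripotency markers were found, the endoderm table held 6 of 6 endoderm markers (144 to 367 CPM in sum) but also 6 of 6 mesoderm markers (238 to 311), and the mesoderm table held 3 of 6 mesoderm markers (28.4 to 139), as did the hPSC table (30.9 to 467). The hPSC markers summed to 2950 to 6560 CPM in hPSC, 1420 to 2760 in ectoderm, 968 to 4910 in endoderm and 855 to 2790 in mesoderm; MIXL1, KDR and GATA4 were not in the mesoderm table, nor SOX1 in the ectoderm table. MALAT1 and NEAT1, nuclear RNAs, were higher in the cytoplasm libraries than in the nucleus libraries of hPSC (log2 change 1.44 and 1.35) and ectoderm (3.04 and 2.55). In endoderm MALAT1 was not called (-0.63) and KCNQ1OT1, another nuclear RNA, was lower in cytoplasm (-1.70), and in mesoderm NEAT1 (-0.97) and KCNQ1OT1 (-3.66) were lower. RPLP0, GAPDH and ACTB were called higher in cytoplasm 3 of 3 in hPSC and mesoderm and 2 of 3 in endoderm, and lower 2 of 3 in ectoderm. Mitochondrial genes held 0.399 to 1.58% of counts in cytoplasm and 8.09 to 16.1% in nucleus of hPSC, ectoderm and endoderm, and the reverse in mesoderm (5.84 to 7.46% in cytoplasm, 1.11 to 1.36% in nucleus). The part of fraction purity in the results below was not tested. The 10 genes summed to 2210 CPM in hPSC cytoplasm replicate 1 against 1280 and 1180 in its group, and to 251 in endoderm nucleus replicate 1 against 686 and 563; mesoderm chromatin spread from 808 to 1520.

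SNHG5, SNHG6 and SNHG16 were higher in cytoplasm than in nucleus in hPSC, endoderm and mesoderm, and SNHG8 in hPSC and mesoderm. In these bulk libraries, a higher share of an RNA in a fraction cannot be told apart from less of the other RNAs there, and fewer cells of a type cannot be told apart from less RNA per cell. SNHG5 stood at 347, 168 and 148 CPM in hPSC cytoplasm and at 65.3, 48.9 and 47.8 in nucleus. The groups did not overlap, and replicate 1 was highest in both. Its log2 change was 1.98 (SE 0.27; edgeR adjusted p = 2.86e-05) in hPSC, 1.59 (SE 0.20; adjusted p = 5.04e-06) in endoderm and 2.06 (SE 0.23; adjusted p = 1.82e-05) in mesoderm.

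SNHG6 reached 222, 107 and 88.0 CPM in hPSC cytoplasm and 41.0, 28.8 and 30.4 in nucleus, with no overlap. In endoderm it was 61.9, 53.8 and 69.1 against 8.73, 15.0 and 11.1, and in mesoderm 83.5, 121 and 100 against 21.2, 29.8 and 18.7. Every cytoplasm library of SNHG6 thus lay above every nucleus library of the same cell type, as for 40.3% of all genes in hPSC, 55.3% in endoderm and 34.7% in mesoderm. The log2 changes were 2.01 (SE 0.31; adjusted p = 7.22e-05), 1.72 (SE 0.20; adjusted p = 1.72e-06) and 2.25 (SE 0.29; adjusted p = 5.66e-05) in hPSC, endoderm and mesoderm.

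SNHG16, host of the SNORD1 snoRNAs, stood in cytoplasm at 120, 138 and 137 CPM in hPSC, 133, 133 and 140 in endoderm and 99.2, 116 and 110 in mesoderm. The nucleus libraries held 61.4, 38.7 and 43.2 in hPSC, 18.3, 35.8 and 33.7 in endoderm and 24.1, 28.4 and 26.6 in mesoderm. Cytoplasm was higher by log2 1.40 (SE 0.14; adjusted p = 1.12e-06), 1.54 (SE 0.15; adjusted p = 4.52e-07) and 2.15 (SE 0.17; adjusted p = 2.18e-06). SNHG8, the shortest of these genes and host of SNORA24, followed in hPSC (104, 55.0 and 47.4 against 24.9, 30.2 and 28.0 CPM; log2 change 1.25, SE 0.26, adjusted p = 0.000788) and in mesoderm (57.2, 82.7 and 67.8 against 21.8, 29.3 and 19.6; 1.67, SE 0.35, adjusted p = 0.0016). In endoderm SNHG8 did not overlap between fractions in CPM (27.1, 28.8 and 30.6 against 8.93, 20.1 and 20.6) but was not called.

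GAS5, a host of many snoRNAs whose spliced RNA is a known decay target, was 562, 329 and 300 CPM in hPSC cytoplasm and 220, 213 and 177 in nucleus. The cytoplasm libraries were all higher, by log2 0.91 (SE 0.21; adjusted p = 0.00167). In mesoderm GAS5 was 329, 360 and 377 against 179, 219 and 156 (log2 change 1.05, SE 0.26, adjusted p = 0.00436). In ectoderm it was 412, 387 and 436 against 217, 268 and 220 (0.44, SE 0.15, adjusted p = 0.0223), and the ectoderm call was lost without cytoplasm replicate 2 (0.43), cytoplasm replicate 3 (0.46), nucleus replicate 1 (0.32) or nucleus replicate 3 (0.36). In endoderm GAS5 was 176, 201 and 231 in cytoplasm and 39.5, 178 and 115 in nucleus; the groups overlapped and it was not called.

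SNHG1, SNHG15 and SNHG17 went the other way in endoderm, where cytoplasm was lower than nucleus. SNHG1, host of several C/D box snoRNAs, was 75.1, 104 and 118 CPM in cytoplasm and 106, 272 and 223 in nucleus, SNHG15 30.7, 28.2 and 37.4 against 26.8, 82.5 and 81.1, and SNHG17 17.2, 22.7 and 26.9 against 17.1, 36.6 and 36.1. In all 3 the low nucleus value, which made the groups overlap, was replicate 1. After TMM scaling the log2 changes were -1.66 (SE 0.21; adjusted p = 4.80e-06), -1.61 (SE 0.24; adjusted p = 2.27e-05) and -1.08 (SE 0.20; adjusted p = 0.00017). On deposited TPM values the SNHG15 change was 0.05, and SNHG17 was not called on TPM (-0.04) or with library totals (-0.43).

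In mesoderm SNHG1 was 101, 105 and 101 CPM in cytoplasm and 252, 270 and 192 in nucleus, lower by log2 -1.12 (SE 0.33; adjusted p = 0.0112) with no overlap. SNHG12, host of H/ACA snoRNAs, also fell there, from 27.6, 31.5 and 17.8 in nucleus to 10.5, 8.11 and 12.2 in cytoplasm (-1.22, SE 0.32, adjusted p = 0.00622). In ectoderm SNHG12 pointed the opposite way, at 6.24, 5.77 and 4.71 in cytoplasm against 2.46, 1.17 and 1.60 in nucleus (1.42, SE 0.25, adjusted p = 0.000444), and by TPM it was the lowest of the 10 genes there. The sums hold different transcripts: in ectoderm all SNHG12 counts were in ENST00000648127.1, which has no snoRNA in an exon, and in mesoderm all were in ENST00000461832.2 and ENST00000474814.1, retained-intron isoforms with SNORA61 in an exon. In hPSC neither SNHG1 (364, 193 and 175 against 223, 283 and 216) nor SNHG12, SNHG15 or SNHG17 was called.

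ZFAS1, host of the SNORD12 snoRNAs, differed between the fractions in endoderm, where its nuclear isoform without an Ensembl identifier was not in the table: 108, 99.1 and 105 CPM in cytoplasm and 8.86, 15.3 and 16.5 in nucleus (log2 change 2.27, SE 0.21, adjusted p = 2.07e-07). In mesoderm it was 217, 273 and 207 against 176, 173 and 166 (0.54, SE 0.18, adjusted p = 0.019). The mesoderm call was lost without cytoplasm replicate 2 (0.40), nucleus replicate 2 (0.54) or nucleus replicate 3 (0.49), and the change was 3.11 when only isoforms with an Ensembl identifier were summed. The hPSC groups overlapped at 358, 202 and 203 in cytoplasm and 214, 212 and 198 in nucleus, and ZFAS1 was not called.

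**Figure D1:**
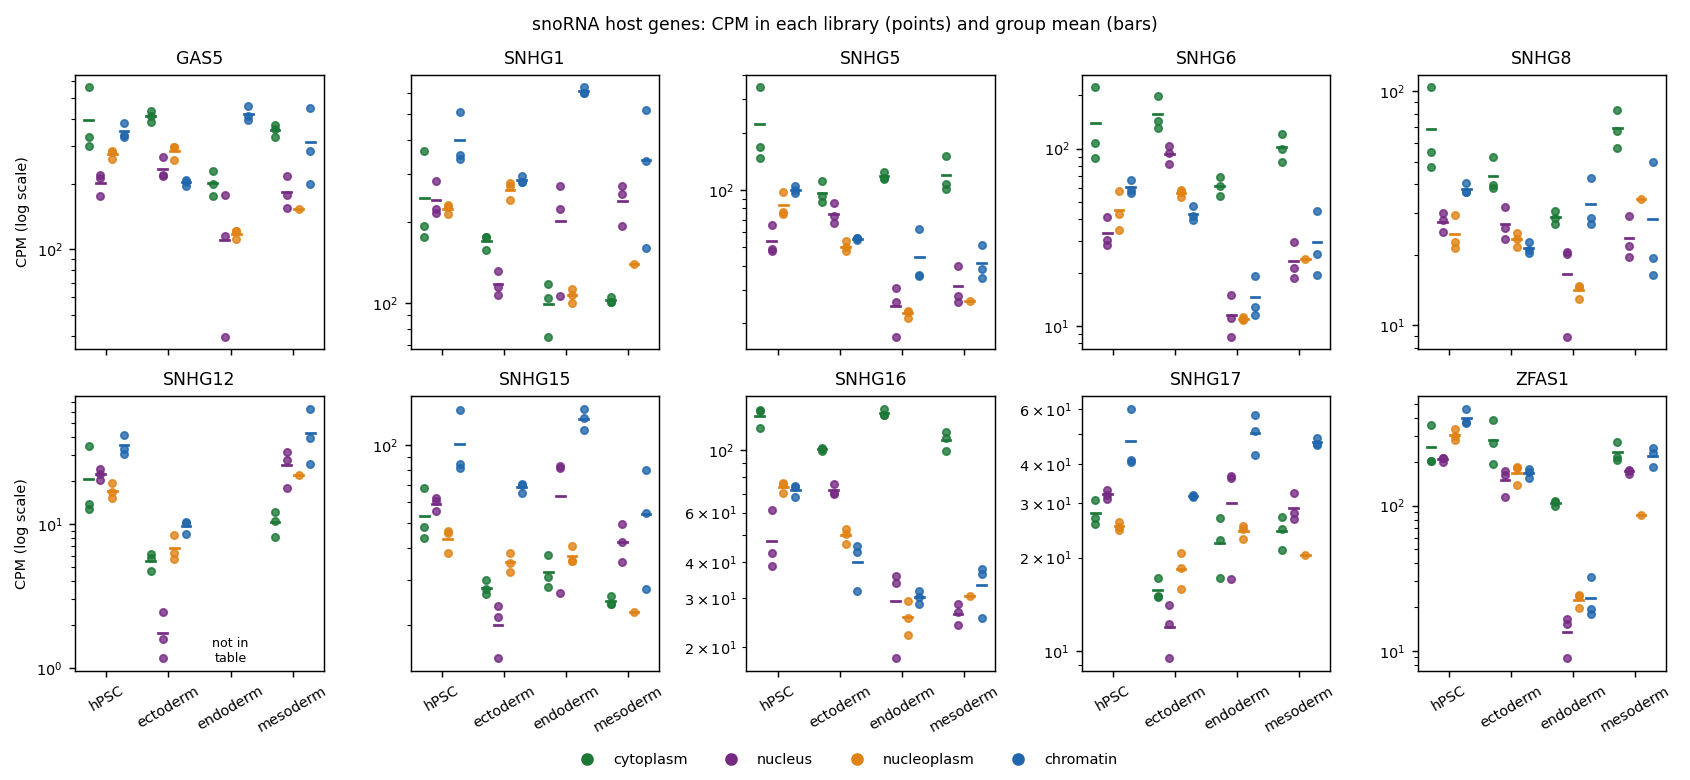
CPM of each gene (log axis) by cell type and fraction; points are libraries and short bars are group means, with 1 library in mesoderm nucleoplasm. SNHG5, SNHG6, SNHG8 and SNHG16 have cytoplasm points above the nucleus points in every cell type. Within a single cell type, 34.7% (mesoderm) to 55.3% (endoderm) of all genes do the same. The ectoderm points are split in this way for all 10 genes. There SNHG5 (log2 change -0.01), SNHG6 (0.38), SNHG8 (0.31) and SNHG16 (0.12) are not called. SNHG1 reaches 596 to 629 CPM in endoderm chromatin.

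By count, 5 genes were called higher and 0 lower of 10 in hPSC, where 65.4% of 14150 genes were called (35.0% higher, 30.4% lower). In endoderm 4 were higher and 3 lower of 9 (background 69.8% of 12800; 34.4% higher, 35.5% lower), and in mesoderm 6 higher and 2 lower of 10 (63.3% of 14533; 31.8% higher, 31.5% lower). In ectoderm 2 were higher and 0 lower (53.7% of 15979; 27.2% higher, 26.5% lower). In ectoderm every cytoplasm library exceeded every nucleus library for all 10 genes in CPM, as for 42.0% of all 15979 genes, but TMM scaling moved the median gene by log2 0.35 against library totals; with totals alone 10 were higher, and with nucleus replicate 2 left out 8 were called. In endoderm the same shift was 0.70, and totals alone gave 6 higher and 2 lower. The share of the 10 genes called lay below that of all genes in hPSC and ectoderm and above it in endoderm and mesoderm. Over all genes, totals in place of TMM moved the share of calls that were higher from 50.7 to 76.4% in ectoderm and from 49.2 to 71.4% in endoderm.

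Isoforms were called in both directions in hPSC, endoderm and mesoderm, as were transcripts of all genes. In cytoplasm against nucleus, 16 isoforms of the 10 genes were called higher and 13 lower of 67 in hPSC (39.7% of 28897 transcripts called; 19.6% higher, 20.0% lower), 11 and 13 of 51 in endoderm (42.1% of 26389; 19.3% and 22.9%), 18 and 11 of 57 in mesoderm (32.0% of 34688; 15.3% and 16.8%), and 3 and 0 of 59 in ectoderm (13.7% of 41708; 7.03% and 6.62%). Of 39 isoforms with an Ensembl identifier called in at least 1 cell type, 11 from 7 genes were higher in cytoplasm in 3 cell types (hPSC, endoderm and mesoderm), 6 were lower in 2 or more, and 2, both of GAS5, were called in both directions. Totals in place of TMM moved the share of all transcript calls that were higher from 51.5 to 75.0% in ectoderm, 45.8 to 60.6% in endoderm and 47.6 to 32.0% in mesoderm. At transcript level the test is weaker: in simulated data it found 59% of transcripts changed by log2 2, against 99% of genes.

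The leading GAS5 isoform, ENST00000687189.1, held 53.4% of GAS5 counts in hPSC cytoplasm and 25.2% in nucleus. Its CPM was 304, 174 and 159 against 71.8, 43.2 and 40.3, and it was higher in cytoplasm by log2 2.02 (SE 0.27; adjusted p = 0.000247) in hPSC, 2.36 (SE 0.30; adjusted p = 0.000116) in endoderm and 3.04 (SE 0.33; adjusted p = 0.000548) in mesoderm. GAS5 ENST00000421068.5, annotated as a retained-intron transcript with 3 exons, went the other way. It was 4.44, 2.41 and 2.39 CPM in hPSC cytoplasm, 14.3, 24.5 and 20.4 in nucleus and 39.9, 37.3 and 57.1 in chromatin (cytoplasm against nucleus -2.74, SE 0.32, adjusted p = 9.23e-05), and in mesoderm 2.54, 1.87 and 1.92 against 27.9, 25.5 and 29.2 (-3.37, SE 0.25, adjusted p = 0.000142). In ectoderm it was not called, at 2.17, 0.721 and 3.46 against 0.388, 1.13 and 0.675.

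Some GAS5 isoforms rest on few libraries. ENST00000685107.1 had no count in hPSC cytoplasm and 0, 6.06 and 16.4 CPM in nucleus, at least 95.9-fold lower in cytoplasm when its total is set to a floor of 3 counts over the group, and its call was lost in 5 of the 6 fits that left out 1 library. ENST00000442067.6 had no count in mesoderm nucleus and 4.43, 2.80 and 1.92 CPM in cytoplasm, at least 31.2-fold higher, but in endoderm it was lower in cytoplasm, at 2.51, 0.182 and 0 against 4.36, 25.8 and 16.9 (-4.46, SE 1.03, adjusted p = 0.00517). The mesoderm call of ENST00000442067.6 was lost without any 1 of its 6 libraries.

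ZFAS1 split in the same manner. Its isoform without an Ensembl identifier held 35.3% of ZFAS1 counts in hPSC cytoplasm and 83.1% in chromatin, 24.8% and 87.5% in mesoderm, and 9.0% and 63.3% in ectoderm; it was not in the endoderm table. It was 72.9, 75.5 and 97.3 CPM in hPSC cytoplasm, 161, 173 and 155 in nucleus and 302, 299 and 408 in chromatin, lower in cytoplasm than in nucleus by -1.02 (SE 0.14; adjusted p = 0.000261) and in mesoderm by -1.10 (SE 0.21; adjusted p = 0.00632). The listed isoform ENST00000371743.8 was higher in cytoplasm, at 138, 65.2 and 53.2 against 27.0, 22.8 and 21.6 CPM in hPSC (1.82, SE 0.31, adjusted p = 0.000992), by 2.55 (SE 0.28; adjusted p = 3.99e-05) in endoderm and by 3.08 (SE 0.30; adjusted p = 0.000367) in mesoderm. The gene sum of ZFAS1 in endoderm, unlike in the other tables, therefore does not include that isoform.

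The leading SNHG5 isoform, ENST00000654795.1, was 278, 129 and 112 CPM in hPSC cytoplasm and 39.4, 28.0 and 29.2 in nucleus, higher by log2 2.40 (SE 0.33; adjusted p = 0.000252), and by 3.33 (SE 0.41; adjusted p = 0.000933) in mesoderm. It held 77.5% of SNHG5 counts in hPSC cytoplasm and 59.6% in nucleus. SNHG6 was nearly 1 isoform in hPSC: ENST00000520944.6 held 95.2% of its counts in cytoplasm and 96.2% in nucleus, but in mesoderm 94.5% and 49.8%, and it was higher in cytoplasm by 3.39 (SE 0.42; adjusted p = 0.000888) there.

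Both SNHG15 and SNHG1 had isoforms that were lower in cytoplasm than in nucleus. SNHG15 ENST00000667119.2 was 0.327, 0 and 0.251 CPM in endoderm cytoplasm, 13.4, 43.4 and 37.8 in nucleus and 46.6, 77.9 and 84.3 in chromatin (cytoplasm against nucleus -7.66, SE 0.66, adjusted p = 7.98e-06). In the same gene ENST00000578968.6 was higher in cytoplasm, by 0.91 (SE 0.27; adjusted p = 0.0206) in hPSC, 0.74 (SE 0.22; adjusted p = 0.0211) in endoderm and 1.54 (SE 0.41; adjusted p = 0.0232) in mesoderm, while ENST00000582727.3 was lower in all 3 and ENST00000580528.2 in hPSC and endoderm. SNHG1 ENST00000656268.1 was 8.28, 12.4 and 11.6 CPM in endoderm cytoplasm, 61.2, 98.8 and 84.0 in nucleus and 301, 316 and 292 in chromatin (-3.37, SE 0.18, adjusted p = 4.86e-07).

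**Figure D2:**
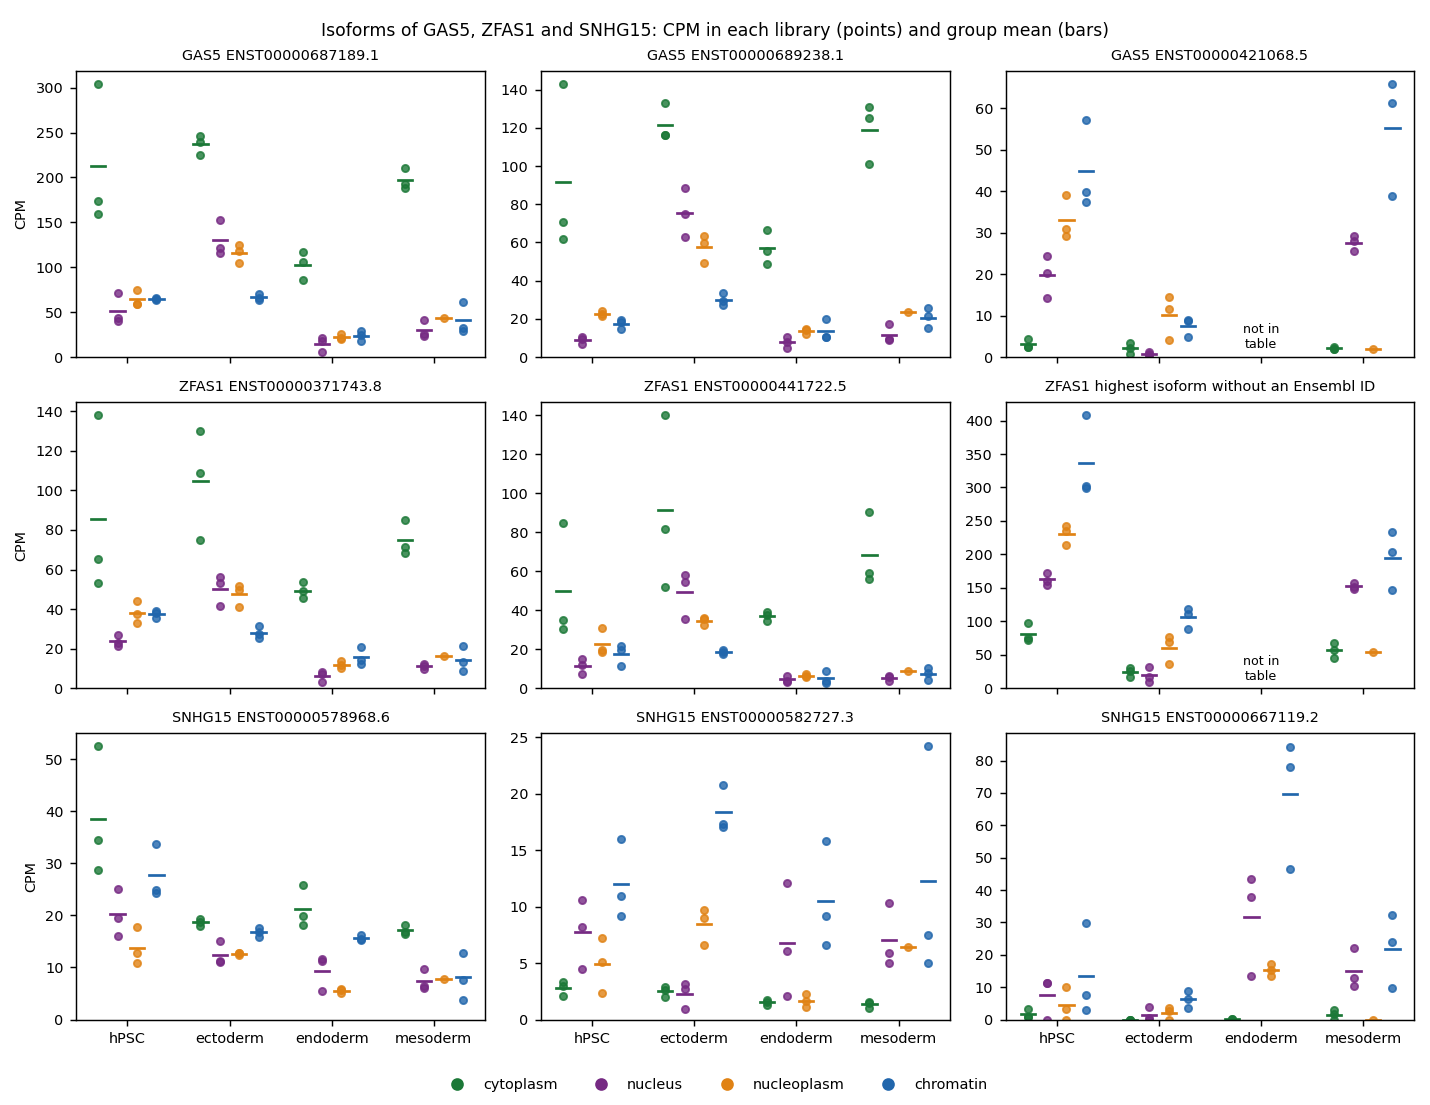
CPM of 9 isoforms of GAS5, ZFAS1 and SNHG15; points are libraries, short bars are group means, colours are fractions, and "not in table" marks an isoform absent from that assembly. GAS5 ENST00000687189.1 is highest in cytoplasm in every cell type, and the unlisted ZFAS1 isoform is highest in hPSC chromatin at 299 to 408 CPM.

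In SNHG16, an isoform that carries a snoRNA inside an exon could be followed by fraction. ENST00000448136 (3 exons, 3607 bases) contains SNORD1C, shown here in capitals with 20 transcript bases on either side, at chr17:76558771-76558888 of GRCh38, plus strand.
SNORD1C in SNHG16: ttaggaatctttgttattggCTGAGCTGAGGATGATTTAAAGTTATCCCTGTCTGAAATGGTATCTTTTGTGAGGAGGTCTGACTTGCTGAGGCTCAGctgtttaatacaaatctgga
Only isoforms present in GENCODE 29 could be searched for a snoRNA in an exon. Of the isoforms of the 10 genes, 33 in hPSC, 33 in ectoderm and 28 in mesoderm were not in it. A further 15, 7 and 11 had no Ensembl identifier, so the shares here can be lower bounds. Isoforms with SNORD1C in an exon took 2.27% of SNHG16 counts in hPSC cytoplasm (1.50 to 2.95% over 3 libraries), 13.1% in nucleus, 7.51% in nucleoplasm and 16.4% in chromatin (12.9 to 20.5%). In mesoderm the share was 1.04% in cytoplasm (0.539 to 1.58%), 14.1% in nucleus and 20.7% in chromatin (17.2 to 25.1%). In ectoderm it was 2.80%, 2.88% and 17.8%, so that cytoplasm and nucleus overlapped there while chromatin stood above both. No test was run on these shares. In mesoderm, SNHG6 isoforms with SNORD87 in an exon took 5.48% of its counts in cytoplasm and 50.2% in nucleus. SNHG1 isoforms with a snoRNA in an exon went the other way in mesoderm, at 10.0% in cytoplasm (9.29 to 10.4%), 3.49% in nucleus (2.04 to 4.55%) and 4.28% in chromatin, and in hPSC took 6.60% in cytoplasm and 10.8% in nucleus.

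**Figure D3:**
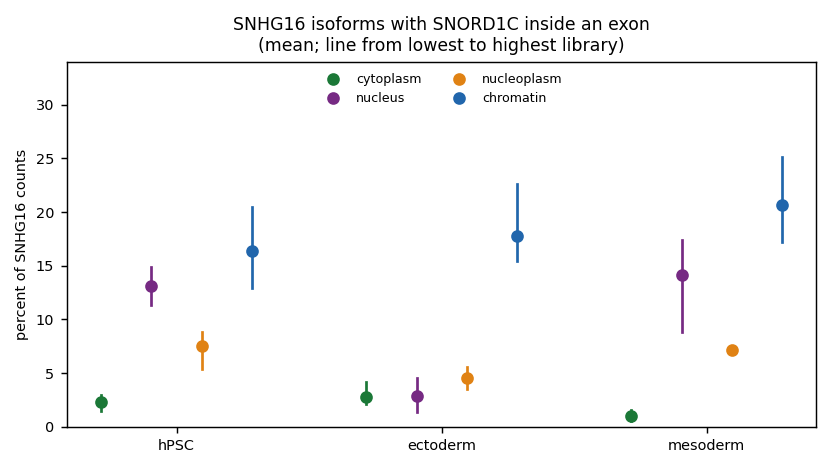
Percent of SNHG16 counts in isoforms with SNORD1C inside an exon, by cell type and fraction; points are means and lines run from the lowest to the highest library. Chromatin is highest in all 3 cell types shown, at 16.4, 17.8 and 20.7%, and the isoform was not found in the endoderm table. Isoforms absent from the gene annotation could not be searched for SNORD1C.

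Within the nucleus, chromatin was compared with nucleoplasm in the 3 cell types with replicates of both. SNHG15 was higher on chromatin in each: 84.0, 81.6 and 137 CPM against 38.0, 46.3 and 45.5 in hPSC (log2 change 0.98, SE 0.21, adjusted p = 0.0045), 64.9, 70.8 and 69.6 against 34.9, 32.1 and 38.1 in ectoderm (0.68, SE 0.12, adjusted p = 0.000698), and 114, 138 and 127 against 40.6, 35.4 and 35.5 in endoderm (1.19, SE 0.23, adjusted p = 0.000547). In CPM no SNHG15 library overlapped in any of them. That held for 7 of the 10 genes in hPSC, 8 of 10 in ectoderm and 7 of 9 in endoderm. The share over all genes was not counted for chromatin. SNHG17 was higher on chromatin in hPSC (40.6, 41.2 and 60.2 against 25.1, 26.1 and 24.6; 0.67, SE 0.16, adjusted p = 0.0068) and ectoderm (0.49, SE 0.13, adjusted p = 0.00745). The hPSC call for SNHG17 was lost without nucleoplasm replicate 3 (0.57).

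SNHG1 showed the largest rise of the 9 genes on endoderm chromatin, at 596, 629 and 599 CPM against 113, 100 and 107 in nucleoplasm (1.93, SE 0.21, adjusted p = 2.31e-06). GAS5 rose there too, at 459, 394 and 411 against 122, 112 and 121 (1.25, SE 0.28, adjusted p = 0.00154), but fell on ectoderm chromatin, at 205, 209 and 197 against 259, 298 and 298 (-0.77, SE 0.15, adjusted p = 0.00116). On TPM values the ectoderm fall of GAS5 kept its direction but was not called. In ectoderm SNHG16 (-0.60, SE 0.14, adjusted p = 0.00409) and SNHG6 (-0.67, SE 0.18, adjusted p = 0.00904) were also lower on chromatin; SNHG16 was no longer called without chromatin replicate 2 (-0.40), nor SNHG6 without nucleoplasm replicate 2 (-0.59), chromatin replicate 1 (-0.52) or chromatin replicate 3 (-0.56), and on TPM values the changes of SNHG16 and SNHG6 were 0.09 and 0.03. In endoderm SNHG8 rose (0.64, SE 0.21, adjusted p = 0.018), lost without nucleoplasm replicate 1 (0.57) or chromatin replicate 1 (0.40). ZFAS1 fell there (-0.54, SE 0.20, adjusted p = 0.0384), lost without nucleoplasm replicate 2 (-0.49), nucleoplasm replicate 3 (-0.49), chromatin replicate 2 (-0.44) or chromatin replicate 3 (-0.37); with library totals its change was 0.04.

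In all, 2 genes were higher and 0 lower on chromatin in hPSC (30.5% of 14150 genes called; 17.1% higher, 13.3% lower), 2 and 3 in ectoderm (44.1% of 15979; 18.5% and 25.6%) and 4 and 1 in endoderm (53.5% of 12800; 22.9% and 30.6%). Totals in place of TMM moved the median gene by log2 0.23, 0.29 and 0.58, and the share of all calls that were higher from 56.2 to 86.5% in hPSC, 41.9 to 71.0% in ectoderm and 42.8 to 73.8% in endoderm. Among their isoforms 11 were higher and 1 lower in endoderm (29.9% of 26389; 11.8% and 18.1%), 0 higher and 8 lower in ectoderm (13.9% of 41708; 4.51% and 9.37%). In hPSC 0 of 67 passed with edgeR (9.75% of 28897; 6.08% and 3.67%), 10 had an unadjusted p under 0.05, and DESeq2 called 4. For transcripts the share of chromatin calls that were higher was 62.4% in hPSC (90.7% with totals, 52.1% with DESeq2), 32.5% in ectoderm (68.9% and 46.6%) and 39.4% in endoderm (75.9% with totals). The GAS5 isoform ENST00000689238.1 fell on ectoderm chromatin, from 49.2, 63.6 and 59.8 CPM to 29.2, 33.5 and 27.4 (-1.31, SE 0.23, adjusted p = 0.00478).

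**Figure D4:**
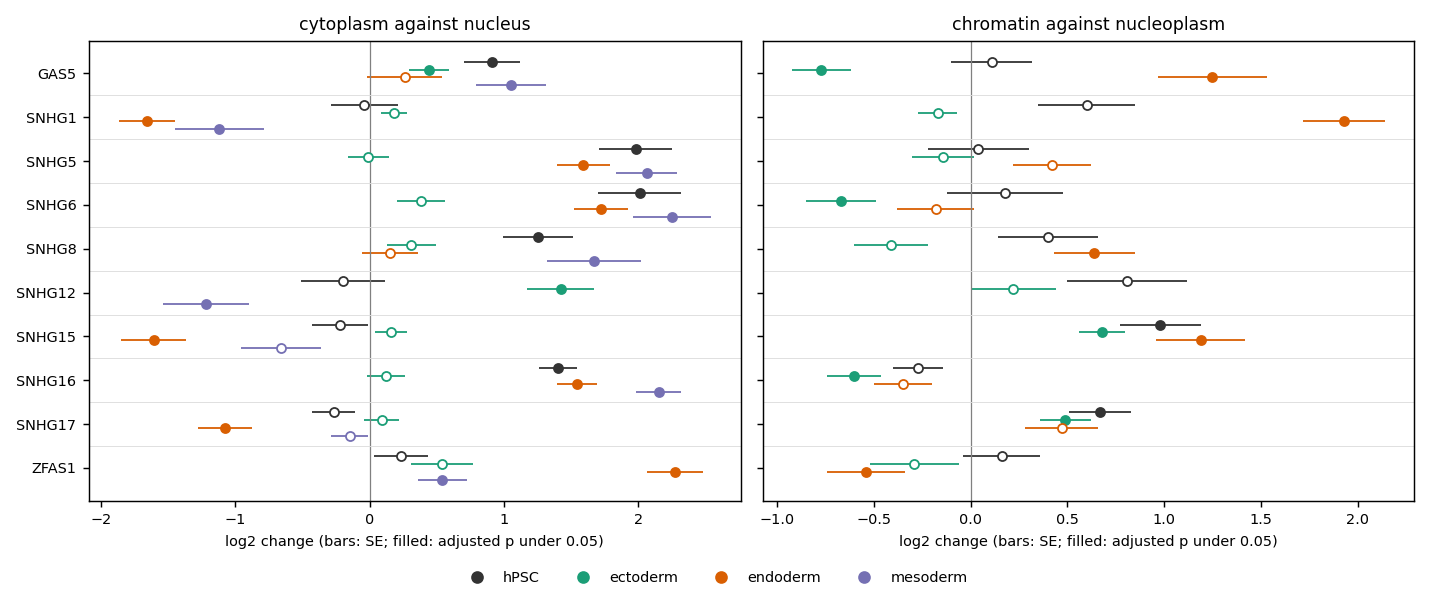
Log2 change of each gene between cytoplasm and nucleus (left) and chromatin and nucleoplasm (right); bars are SE, colours are cell types and filled points passed adjusted p under 0.05. SNHG5, SNHG6 and SNHG16 lie at 1.40 to 2.25 on the left in hPSC, endoderm and mesoderm, and SNHG15 lies at 0.68 to 1.19 on the right.

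Between cell types the assembly changes with the cell type, so a gene sum can change because its isoform set does, and these values are read with that limit. They were tested on genes present in all 4 tables, 9 of the 10. In cytoplasm no gene was higher than in hPSC. Against 76.1%, 59.7% and 68.1% of 10672 genes called in ectoderm, endoderm and mesoderm, 6, 8 and 4 of 9 were called, all lower (37.0%, 32.2% and 33.1% of all genes were lower, and 39.1%, 27.5% and 35.0% higher). With totals the share of all endoderm calls that were higher moved from 46.0 to 67.0%. SNHG15 and SNHG5 fell in every cell type: SNHG15 by -0.98 (SE 0.16; adjusted p = 5.52e-05) in ectoderm, -0.94 (SE 0.16; adjusted p = 0.000167) in endoderm and -1.14 (SE 0.16; adjusted p = 2.03e-05) in mesoderm, and SNHG5 by -1.25 (SE 0.26; adjusted p = 0.000395), -1.12 (SE 0.25; adjusted p = 0.00163) and -0.92 (SE 0.25; adjusted p = 0.00492). Without hPSC cytoplasm replicate 1 the SNHG5 values were -0.76, -0.64 and -0.43, and all were still called.

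The endoderm cytoplasm also held less ZFAS1 (-1.51, SE 0.23, adjusted p = 6.54e-05), SNHG1 (-1.52, SE 0.23, adjusted p = 5.64e-05), SNHG8 (-1.47, SE 0.25, adjusted p = 0.00015), SNHG6 (-1.39, SE 0.28, adjusted p = 0.000636; -0.88 and called without hPSC cytoplasm replicate 1) and GAS5 (-1.19, SE 0.20, adjusted p = 0.000133) than hPSC. The ZFAS1 fall was -0.29 and not called on TPM values, and -0.93 and called over transcripts listed in all 4 tables. The ZFAS1 isoform without an Ensembl identifier was counted in hPSC but was not in the endoderm table. SNHG17 fell by -0.53 (SE 0.16; adjusted p = 0.00861) in endoderm cytoplasm, lost without endoderm cytoplasm replicate 1 (-0.32). It was also not called with library totals (-0.32), on TPM values (-0.25) or over transcripts listed in all 4 tables (-0.68). SNHG16 did not pass in endoderm, at 135 ± 3.98 CPM (SD, n = 3) against 132 ± 10.3 (n = 3). In ectoderm SNHG17 (-0.87, SE 0.16, adjusted p = 0.000143) and SNHG16 (-0.44, SE 0.10, adjusted p = 0.00126) fell. The ectoderm SNHG16 fall was not called on TPM values (-0.14) or over transcripts listed in all 4 tables (-0.15). The ectoderm falls of SNHG1 (-0.58) and SNHG8 (-0.71) leaned on hPSC cytoplasm replicate 1: without it they were -0.17 and -0.29 and not called. The ectoderm SNHG1 call was lost as well without cytoplasm replicate 1 (-0.57), 2 (-0.59) or 3 (-0.59) of ectoderm. That of SNHG8 was lost without ectoderm cytoplasm replicate 1 (-0.61) and over transcripts listed in all 4 tables (-0.39). In mesoderm SNHG1 fell by -1.30 (SE 0.23; adjusted p = 0.000139), and SNHG16 by -0.33 (SE 0.10; adjusted p = 0.0116), lost without hPSC cytoplasm replicate 2 (-0.28) and 0.50, called higher, when only transcripts listed in all 4 tables were summed.

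In nucleus, 3 genes were higher and 3 lower of 9 in ectoderm than in hPSC (57.7% of 10651 genes called; 28.8% higher, 28.9% lower), 0 and 3 in endoderm (57.0%; 28.8% and 28.3%) and 0 and 4 in mesoderm (54.0%; 26.1% and 27.9%). ZFAS1 in endoderm nucleus was 8.86, 15.3 and 16.5 CPM against 214, 212 and 198 in hPSC (log2 change -3.58, SE 0.22, adjusted p = 1.62e-08), and -1.34 on transcripts shared by all 4 tables. SNHG6 was higher in ectoderm nucleus, at 81.4, 103 and 94.8 against 41.0, 28.8 and 30.4 (1.57, SE 0.22, adjusted p = 3.41e-05), as was SNHG16 (0.68, SE 0.20, adjusted p = 0.00835), while SNHG17 (-1.38, SE 0.19, adjusted p = 2.47e-05), SNHG15 (-1.52, SE 0.26, adjusted p = 0.000164) and SNHG1 (-0.97, SE 0.22, adjusted p = 0.00182) were lower. The ectoderm SNHG16 rise was not called with library totals, on TPM values or over transcripts shared by all 4 tables. SNHG5 rose by 0.57 (SE 0.21; adjusted p = 0.0313) in ectoderm nucleus; without hPSC nucleus replicate 2 (0.52), replicate 3 (0.52) or ectoderm nucleus replicate 2 (0.36) it was not called, and on TPM values it was -2.11. SNHG5 and SNHG6 were lower in endoderm (-0.77 and -1.15) and SNHG5 and SNHG16 in mesoderm (-0.96 and -1.02). The mesoderm SNHG16 fall was not called on TPM values or over transcripts shared by all 4 tables. SNHG15 in mesoderm nucleus (-0.65) was not called without any 1 of its 6 libraries (-0.53 to -0.75), nor SNHG6 (-0.69) without hPSC nucleus replicate 1 (-0.54), mesoderm nucleus replicate 1 (-0.66) or replicate 3 (-0.55).

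The cytoplasm-nucleus difference itself was compared with hPSC. It was smaller in ectoderm for SNHG5 (-1.84, SE 0.35, adjusted p = 0.000232), SNHG6 (-1.48, SE 0.38, adjusted p = 0.00245) and SNHG16 (-1.14, SE 0.22, adjusted p = 0.0002), 3 of 9 with 52.4% of 10681 genes called (26.3% higher, 26.1% lower). On TPM values SNHG6 (-0.71) and SNHG16 (-0.58) were not called, nor was SNHG16 over shared transcripts (-0.62). Without hPSC cytoplasm replicate 1 SNHG6 was -0.91 and called. The ectoderm fall was not particular to these genes. RPLP0, GAPDH and ACTB were called lower 3 of 3 (median -1.42, against 0.05 over all genes). Of 35 protein-coding snoRNA hosts, 29 were called lower and 2 higher (median -1.53). In endoderm 5 of 9 differed (38.6%; 20.0% higher, 18.6% lower), with ZFAS1 higher (2.08, SE 0.33, adjusted p = 8.59e-05) and SNHG1 lower (-1.57, SE 0.33, adjusted p = 0.000979; -0.48 and not called on TPM). In mesoderm 2 of 9 differed (25.3%; 18.5% higher, 6.79% lower), SNHG16 by 0.83 (SE 0.22; adjusted p = 0.00865) and SNHG1 by -0.99 (SE 0.33; adjusted p = 0.0307). Over shared Ensembl transcripts alone, the ZFAS1 difference was 0.43 and not called, and on TPM values the mesoderm SNHG16 difference was -0.05; with totals it was 0.58 and not called, and mesoderm SNHG1 was not called over shared transcripts (-1.03) or in 7 of the 12 fits that left out 1 library (-0.59 without hPSC cytoplasm replicate 1). With totals the share of all calls that were higher moved from 51.9 to 92.1% in endoderm, while in mesoderm it moved from 73.2 to 48.7%, and in endoderm nucleus against hPSC from 50.4 to 30.1%.

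Other genes of the same function were read from lists chosen with earlier results known. Of the protein-coding snoRNA hosts, which include ribosomal protein genes, 32 were called higher and 1 lower in hPSC cytoplasm than in nucleus of 35 (median log2 change 1.38 against 0.10 over all genes), 30 and 2 in endoderm (1.14 against 0.01), 30 and 2 in mesoderm (2.61), and 5 and 7 in ectoderm (-0.20). The other noncoding hosts were mixed, 5 higher and 3 lower of 13 in hPSC, 4 and 0 of 14 in ectoderm, 5 and 4 of 11 in endoderm and 8 and 2 of 12 in mesoderm. Nonsense-mediated decay factors were called 2 higher and 2 lower of 10 in hPSC, 4 and 5 in ectoderm, 2 and 5 in endoderm and 2 and 4 in mesoderm. The snoRNP proteins, which bind snoRNAs, were lower than hPSC in cytoplasm for 8 of 8 in ectoderm, endoderm and mesoderm alike (medians -1.33, -0.74 and -1.04, against 0.04, -0.05 and 0.01 over all genes, of which 37.0%, 32.2% and 33.1% were called lower); the 3 comparisons share the hPSC libraries.

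By TPM, which allows genes to be ranked per length, SNHG5 led in hPSC cytoplasm (mean TPM 1260), followed by GAS5 (991) and ZFAS1 (836), and the libraries of neighbouring ranks overlapped. SNHG17 (30.6) and SNHG12 (23.9) were last. GAS5 led in hPSC nucleus (446), mesoderm nucleus (531) and ectoderm chromatin (733), and SNHG1 (726) in endoderm chromatin, with GAS5 (647) overlapping it.

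Across the 46 libraries, log2(CPM + 1) of SNHG5 and SNHG16 correlated at Pearson r = 0.92, SNHG5 and SNHG6 at 0.88, and SNHG1 and SNHG15 at 0.86, whereas SNHG6 and SNHG17 were at -0.42; these describe libraries that share fractions, cell types and depth, and no p is given. The genes whose log2 CPM over the same 46 libraries was most like GAS5, among 9172, were PSME3IP1 (0.81), RCBTB2 (0.81), MRPS21 (0.79), IQCB1 (0.77) and KMT5B (0.76). For the mean of the 9 genes in all 4 tables they were PSMC3IP (0.88), MAPKAPK5 (0.87), RAD1 (0.86), MRPS21 (0.86) and PDCD2 (0.85).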

How the data were processed

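Per the labels' protocols, libraries were made from fractionated total RNA with a NEBNext Ultra kit and sequenced on a NovaSeq; the submitters' processing notes name STAR, RSEM and hg38, with no versions or roles. The authors deposited, per cell type, a table of expected counts (whole numbers) and of TPM per transcript of that cell type's own assembly; 1 column of each ectoderm table matched no label and was not used. Column names code the nucleus as "Nei", which was read by elimination, and the 1 mesoderm nucleoplasm column was placed by group. Transcripts were summed per gene.

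Counts were tested with edgeR 4.0.16 (limma 3.58.1, R 4.3.3; quasi-likelihood test, TMM, filterByExpr minimum count 10), Benjamini-Hochberg adjusted over all genes or transcripts, and called at adjusted p under 0.05. Libraries of 1 cell type were fitted together; between cell types, libraries of the compared fraction on 10701 shared genes. Levels are CPM of the library total; likeness was ranked over genes with a mean of at least 10 CPM. Tables were read with Python 3.11.15 and pandas 2.3.3. The test was tested on simulated data: at log2 1 and 2 it found 83% and 99% of changed genes of 14150 and 16% and 59% of transcripts of 28897, in the hPSC cytoplasm-nucleus comparison. Only 200 genes or transcripts, picked from those with higher counts, were changed, and all fractions otherwise shared the same means. The real fractions differ far more widely, so these rates may be too high for them. Alternatives used DESeq2 1.42.0, library totals, TPM (log2(TPM + 1)), other filters, fewer isoforms and left-out libraries.

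Members and gene lists were chosen with earlier results of these data known. The fixed rule gave log2 changes only to called genes, and to the leading isoform of each gene, called isoforms with the 3 largest rises and falls per comparison. Of 45 replicate pairs, 0 held identical values.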

Additional observations from a re-analysis of the deposited data

Results flagged for a closer look

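Each value here was set apart because the cytoplasm-nucleus difference in a derived cell type differed from that in hPSC by the test of the difference (edgeR, log2 scale, adjusted p under 0.05). In ectoderm the difference was smaller for SNHG16 (-1.14), SNHG5 (-1.84) and SNHG6 (-1.48). It was also called smaller there for RPLP0, GAPDH and ACTB (3 of 3) and for 29 of 35 protein-coding snoRNA hosts, with 2 called higher. In endoderm the difference was lower for SNHG1 (-1.57), SNHG15 (-1.34), SNHG17 (-0.77) and SNHG8 (-1.05), and higher for ZFAS1 (2.08). In mesoderm it was lower for SNHG1 (-0.99) and higher for SNHG16 (0.83). SNHG8 in endoderm was not called without hPSC cytoplasm replicate 1 (-0.60), hPSC nucleus replicate 1 (-0.96), endoderm cytoplasm replicate 1 (-1.0) or 2 (-1.05), or endoderm nucleus replicate 3 (-0.93). SNHG1 in mesoderm was not called without hPSC cytoplasm replicate 1 (-0.59), hPSC nucleus replicate 1 (-0.92) or 3 (-0.93), mesoderm cytoplasm replicate 1 (-0.95) or 3 (-1.01), or mesoderm nucleus replicate 1 (-0.90) or 2 (-0.92). With library totals SNHG15 (-0.82), SNHG17 (-0.23) and SNHG8 (-0.50) in endoderm and SNHG16 in mesoderm (0.58) were not called. Of the flagged values, only SNHG5 in ectoderm (-1.30), ZFAS1 in endoderm (1.44) and SNHG1 in mesoderm (-1.57) were called on TPM. SNHG15 in endoderm was 0.10 on TPM and SNHG1 in endoderm was -0.48. The assembly differs between the cell types. Over Ensembl transcripts shared by all 4 tables, ZFAS1 in endoderm (0.43), SNHG16 in ectoderm (-0.62), SNHG8 in endoderm (-0.52) and SNHG1 in mesoderm (-1.03) were not called and SNHG17 in endoderm turned to 0.17, while SNHG5 (-1.58) and SNHG6 (-1.11) in ectoderm, SNHG1 (-1.31) and SNHG15 (-1.5) in endoderm and SNHG16 in mesoderm (1.37) kept their direction and call.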

How the results depend on the processing

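Of the values recomputed for named genes and isoforms, 1198 kept their direction and side of the threshold, 143 kept the direction but were no longer called, and 9 reversed; of the counts, 256 stayed within 1.5 times and 51 moved further. The reversed values were, on TPM, SNHG15 endoderm cytoplasm against nucleus (0.05), SNHG16 (0.09) and SNHG6 (0.03) ectoderm chromatin against nucleoplasm, SNHG5 ectoderm against hPSC nucleus (-2.11), and the cytoplasm-nucleus differences of SNHG15 in endoderm (0.10) and SNHG16 in mesoderm (-0.05). With library totals ZFAS1 endoderm chromatin reversed (0.04), and over transcripts shared by all 4 tables SNHG16 mesoderm against hPSC cytoplasm (0.50) and the SNHG17 endoderm difference (0.17). The cause was not tested.

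Counts of genes called moved as follows. In ectoderm cytoplasm against nucleus (2) they were 10 with totals, 7 on TPM and 5 with Ensembl-listed transcripts; in hPSC chromatin (2), 4, 8 and 1; in ectoderm chromatin (5), 3 with totals and 3 with listed transcripts. In endoderm against hPSC nucleus (3) totals gave 5 and TPM 6, and in mesoderm (4) totals gave 2. For the cytoplasm-nucleus difference, TPM gave 1 in ectoderm (3), 2 in endoderm (5) and 1 in mesoderm (2), totals gave 3 in endoderm and 1 in mesoderm, and shared transcripts gave 2 in endoderm. Isoform counts moved in ectoderm cytoplasm against nucleus (3; DESeq2 7, totals 12, TPM 12), in hPSC chromatin (0; 4, 7 and 28), in ectoderm chromatin (8; 13, 5 and 17) and in endoderm chromatin (12; TPM 24). The cause was not tested. Leaving mitochondrial genes out before scaling, chosen after seeing the data, gave 3 for 2 in ectoderm cytoplasm against nucleus and 5 for 4 in mesoderm against hPSC nucleus.

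Leaving out 1 library at a time, genes called ranged over 1 to 8 in ectoderm cytoplasm against nucleus (8 without nucleus replicate 2), 1 to 2 in hPSC chromatin, 4 to 7 in ectoderm against hPSC cytoplasm, 3 to 5 in endoderm against hPSC nucleus (5 without endoderm nucleus replicate 1), 2 to 3 in mesoderm against hPSC nucleus, and for the difference 3 to 6 in ectoderm (6 without hPSC cytoplasm replicate 1) and 1 to 3 in mesoderm. Isoforms called ranged over 1 (without cytoplasm replicate 2) to 6 (without nucleus replicate 2) in ectoderm cytoplasm against nucleus, 0 to 1 in hPSC chromatin, 3 to 6 in ectoderm chromatin (3 without chromatin replicate 1, 5 without chromatin or nucleoplasm replicate 3) and 4 to 11 in endoderm chromatin (4 and 5 without nucleoplasm replicates 2 and 3).

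Whether replicate numbers pair the samples could not be settled from these values. Deviations of same-numbered samples correlated at -0.56 to 0.36, with 9 of 21 pairs above 0.1 and 8 libraries closest to their own number. With the replicate number as a block, genes called were 5, 2, 7 and 8 in hPSC, ectoderm, endoderm and mesoderm cytoplasm against nucleus, 2, 5 and 4 for chromatin, 5, 8 and 4 against hPSC in cytoplasm, 6, 3 and 3 in nucleus, and 3, 5 and 2 for the difference. Isoforms called were 29, 3, 23 and 25, and 0, 8 and 8 for chromatin.

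Floors for counts of 0 cover counting error only.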
